A study of Mus musculus with 16 samples.

Results

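The genes described here are 10 members of the MYC network and of the G1 cell cycle machinery in mouse macrophages: Myc, Mxd1, Cables1, the D-type cyclins Ccnd1, Ccnd2 and Ccnd3, the kinases Cdk4 and Cdk6, and the inhibitors Cdkn1a and Cdkn1b. They were taken by symbol from a table of 55416 Ensembl gene IDs, and all 10 were among the 14168 genes with enough counts to be tested. RNA was sequenced from macrophages of the Hoxb8 line, which is derived from bone marrow, either alone or together with apoptotic Jurkat cells (a leukaemia line of human T cells) for 45, 90 or 180 min. Macrophages engulf such dying cells, a process named efferocytosis. Each of the 4 groups held 4 libraries of total RNA depleted of ribosomal RNA. All groups share the Hoxb8 line. The labels name no strain, age or culture for any library and no harvest time for the macrophages kept alone, so exposure and time in culture cannot be told apart, and p-values measure only a spread between libraries that may be technical. The genes were chosen by function and by their measured levels across these 4 groups. Their levels and fitted changes are therefore a description, without p-values, and whether a gene passed the threshold of the fit over all genes (adjusted p under 0.05, here "called") is given as a label and not as support.

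MYC is a transcription factor that pairs with MAX and binds the E-box, a short DNA motif, to drive genes of growth and biosynthesis. MXD1 competes with it for MAX and represses from the same motif. Growth signals raise D-type cyclins, which switch on CDK4 and CDK6, and these kinases phosphorylate the retinoblastoma protein so that E2F factors can start DNA synthesis. p21, the product of Cdkn1a, and p27, the product of Cdkn1b, hold this step back. CABLES1 is an adaptor that links cyclin-dependent kinases to other kinases and is known to favour an inhibitory phosphorylation of CDK2. Mature macrophages mostly do not divide, and in them Cdkn1a is known as an abundant gene tied to differentiation and survival as well as to the cell cycle.

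The RefSeq promoter table (build GRCm38.p6) held windows for 6 of the 10 genes, 8 windows in all: Mxd1, Ccnd3, Cdk4, Cdk6, Cdkn1a and Cdkn1b. Myc, Cables1, Ccnd1 and Ccnd2 had no entry. Only the 250 bases before each start site were searched, on both strands. The E-box searched was CACGTG, which reads the same on both strands. It stood in 2 of the 8 windows and in 6.02% of 32851 windows of the same length over all genes. Those of Cdk4 (chr10:127063285-127063534, + strand) and Cdk6 (chr5:3343643-3343892, + strand) are shown because they are the sites at which MYC and MXD1 could meet these members, with the E-boxes in capitals.
Cdk4: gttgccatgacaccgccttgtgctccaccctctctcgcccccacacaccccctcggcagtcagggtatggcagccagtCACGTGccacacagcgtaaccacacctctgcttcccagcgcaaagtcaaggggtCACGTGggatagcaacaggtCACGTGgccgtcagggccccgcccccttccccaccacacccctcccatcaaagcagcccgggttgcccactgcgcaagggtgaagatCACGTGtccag
Cdk6: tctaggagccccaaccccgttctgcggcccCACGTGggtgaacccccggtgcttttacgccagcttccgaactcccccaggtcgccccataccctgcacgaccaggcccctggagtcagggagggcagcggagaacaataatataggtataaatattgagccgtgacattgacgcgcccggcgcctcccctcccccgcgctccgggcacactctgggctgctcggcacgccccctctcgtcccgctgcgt
The Cdk4 window held 4 E-boxes, whose first bases lie 172, 118, 98 and 11 bases before the start site, and 7 of the 32851 windows (0.0213%) held at least 4. The Cdk6 window held 1, starting 220 bases before the start site. The window before the more upstream of the 2 Cdkn1a start sites (chr17:29090729-29090978, + strand) is shown because Cdkn1a is the textbook target of p53. Capitals mark GACATGTTC and its reverse complement, a form of the p53 motif that 0.11% of all windows held.
Cdkn1a: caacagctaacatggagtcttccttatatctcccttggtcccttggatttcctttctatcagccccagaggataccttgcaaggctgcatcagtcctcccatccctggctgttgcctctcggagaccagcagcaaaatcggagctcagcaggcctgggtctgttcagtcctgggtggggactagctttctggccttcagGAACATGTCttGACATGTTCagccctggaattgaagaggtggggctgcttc
These copies begin 51 and 40 bases before that start site. GCGTGGGCG, a site of the EGR factors, TGAGTCA of AP-1, TGACGTCA of CREB and TTTCGCGC of E2F were in none of the 8 windows, against 0.536%, 4.46%, 1.55% and 0.256% of all windows. A match is a description of the letters and shows no binding.

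Levels are CPM, the count divided by the scaled library size in M (megacounts), and changes are log2 fold changes of an edgeR quasi-likelihood fit over all 16 libraries, with their standard errors (SE). The members ran on separate courses. Myc was highest at 90 min, Cables1 stayed low until 90 min and was highest at 180 min. Mxd1 and Ccnd2 were lowest at 180 min. Cdkn1a was lower than in macrophages alone at 90 and 180 min, and Ccnd1 was higher at all 3 times. Cdk4 and Cdkn1b were called in none of the 6 comparisons. Against macrophages alone 5 of the 10 were called at 45 min (4 higher, 1 lower), where 10.8% of all genes tested were called (4.69% higher, 6.11% lower). At 90 min 6 were called (4 higher, 2 lower; 21.1% of all genes, 11.1% higher and 9.97% lower) and at 180 min 8 (3 higher, 5 lower; 31.1% of all genes, 15.1% higher and 16% lower). The libraries of the 2 groups did not overlap for 7 members at each time, against 16.9%, 21.2% and 28.6% of all genes tested. The median size of the members' change, without regard to sign, was 0.20, 0.19 and 0.23 on the log2 scale at the 3 times, and over all genes 0.13, 0.17 and 0.21. Since the members were chosen with these values known, nothing is read from these counts.

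**Figure D1:**
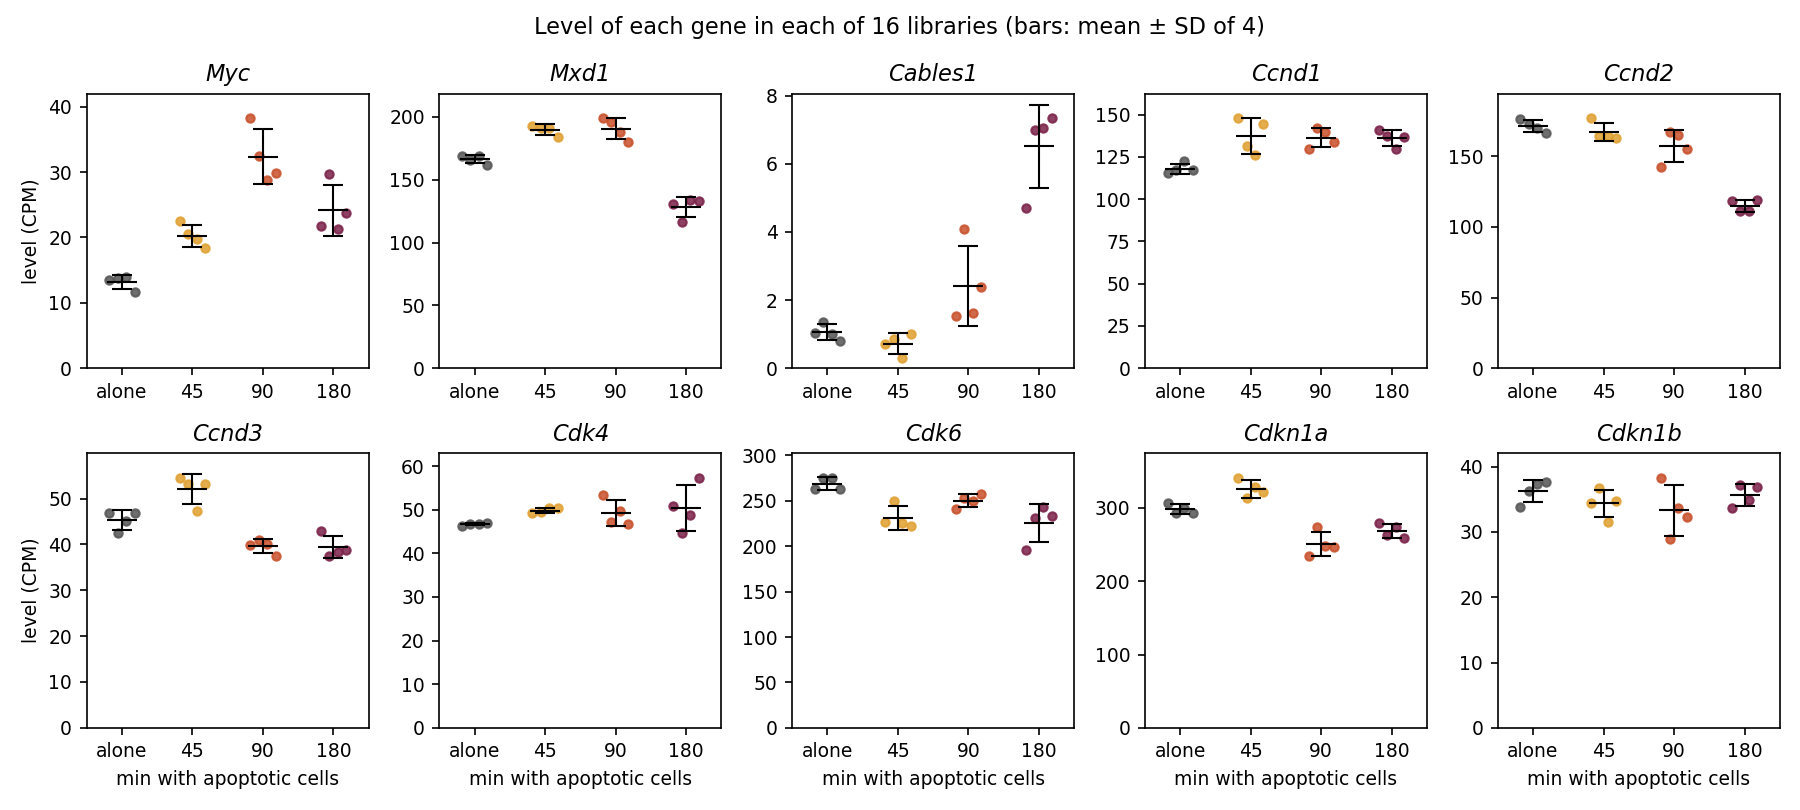
Level in CPM (y axis from 0) of each of the 10 genes in each of the 16 libraries, by group (x axis: macrophages alone, or minutes with apoptotic cells); points are libraries and bars are mean ± SD of 4. Myc peaks at 90 min, Cables1 reaches 4.70 to 7.33 CPM at 180 min, Ccnd2 and Mxd1 drop at 180 min, and Cdkn1b stays between 28.9 and 38.3 CPM in all libraries.

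To set different genes side by side, levels were divided by the length of all annotated exons of a gene together (CPM per kb). Which transcripts were in use was not tested, so orders, shares and ratios between genes depend on this length. On this scale Cdkn1a was the most abundant member in every group, at 83.9 ± 1.94 CPM per kb in macrophages alone (SD, n = 4). In plain CPM, Cdkn1a (298) and Cdk6 (269) lay closer together in macrophages alone. Ccnd1 (25.1 CPM per kb), Mxd1 (23.5), Cdk6 (19.2), Ccnd2 (18.2) and Cdk4 (14.4) followed, then Cdkn1b (7.97), Ccnd3 (5.16), Myc (4.87) and Cables1 (0.276). In macrophages alone the libraries of neighbours in this order overlapped only for Ccnd3 and Myc. At 90 min Myc stood at 11.9 ± 1.55 CPM per kb, above Cdkn1b with no overlap. At 180 min Cdk4 (15.5 ± 1.60) stood above Ccnd2 (12.2 ± 0.439) with no overlap, the reverse of their order in macrophages alone. Cables1 was the lowest member in every group.

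Myc, the activator of the network, gave 13.5, 13.9, 13.9 and 11.7 CPM in the 4 libraries of macrophages alone. It gave 22.5, 20.5, 19.7 and 18.4 CPM at 45 min, 38.2, 32.4, 28.9 and 29.8 CPM at 90 min, and 21.7, 29.8, 21.3 and 23.8 CPM at 180 min. Every library with apoptotic cells was above every library of macrophages alone, and 1 library of 180 min (29.8 CPM) lay among those of 90 min. Against macrophages alone Myc rose by 0.61 (SE 0.10) on the log2 scale at 45 min, by 1.28 (SE 0.10) at 90 min, a ratio of 2.43, and by 0.85 (SE 0.10) at 180 min. From 45 to 90 min it rose by a further 0.67 (SE 0.097), and from 90 to 180 min it fell by 0.43 (SE 0.10). The call for 180 against 45 min (0.24, SE 0.098) was lost in 14 of 23 alternative settings. It was 0.13 without library 2 of 180 min.

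Mxd1, the repressor that competes for MAX, rose with Myc at 45 min, differed from 45 to 90 min by 0.01 (SE 0.047) while Myc rose, and fell with Myc from 90 to 180 min. Macrophages alone gave 169, 166, 169 and 162 CPM, 45 min 193, 191, 191 and 184 CPM, 90 min 199, 196, 188 and 180 CPM, and 180 min 131, 116, 134 and 133 CPM. The libraries of 45 and 90 min all lay above those of macrophages alone and those of 180 min all lay below them. Mxd1 rose by 0.19 (SE 0.047) at 45 min and by 0.20 (SE 0.048) at 90 min, and it fell by 0.37 (SE 0.048) at 180 min, all against macrophages alone. From 90 to 180 min it fell by 0.57 (SE 0.049). Myc per Mxd1, each per kb, was 0.207 ± 0.0133 in macrophages alone, 0.278 ± 0.0184 at 45 min, 0.440 ± 0.0427 at 90 min and 0.495 ± 0.116 at 180 min (SD, n = 4 each). In this ratio libraries of 90 and 180 min overlapped, those of the other groups did not, and macrophages alone were lowest.

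**Figure D2:**
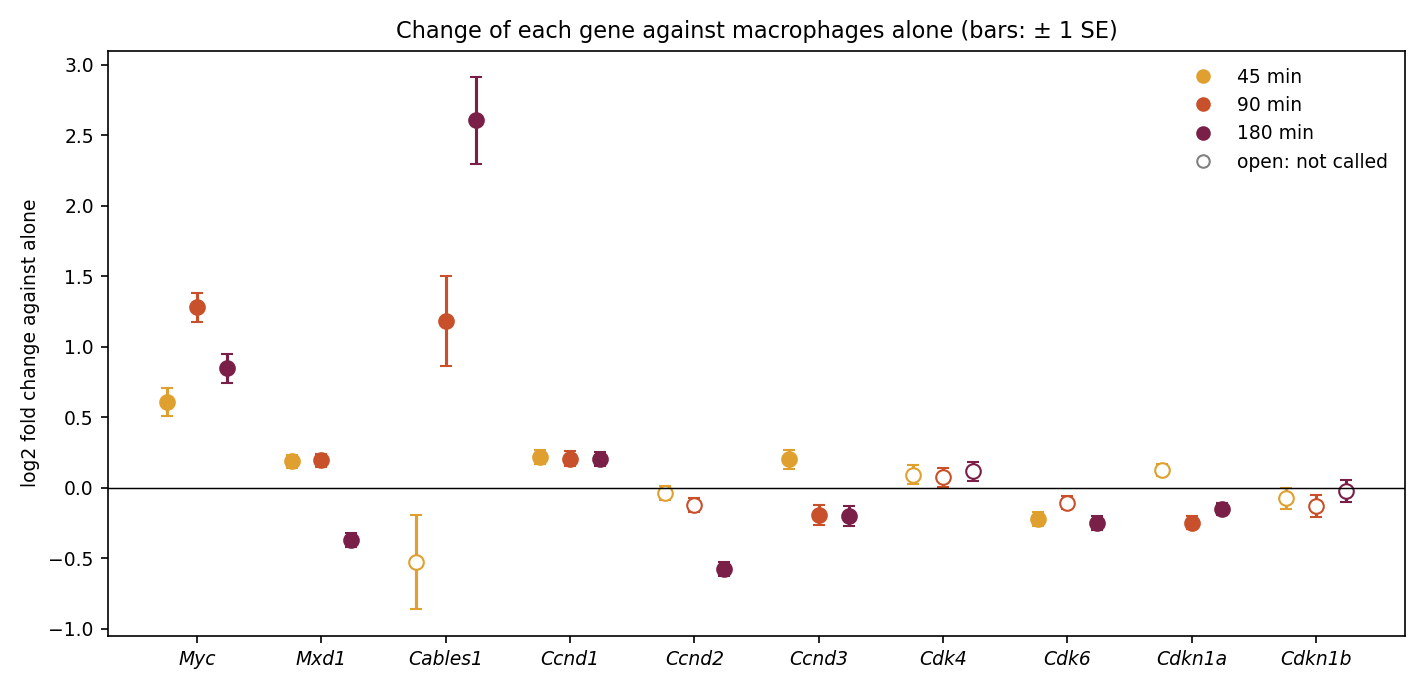
Log2 fold change against macrophages alone (y axis) of each gene (x axis) at 45, 90 and 180 min; points are the fitted values, bars ± 1 SE, and open points were not called. Cables1 at 180 min (2.61) and Myc at 90 min (1.28) are the farthest from 0, and the values of Mxd1, Cables1, Ccnd3 and Cdkn1a cross 0 between times.

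The lists of other genes, here and below, were chosen with earlier results of these data known. Their counts, shares and p-values are therefore a description, and nothing is read from them. Genes around MYC were tested one by one with edgeR's quasi-likelihood test and Benjamini-Hochberg adjustment over all 14168 genes. Of 7 tested partners in the network 2 fell at 45 min and none rose by this test (at an unadjusted p under 0.05, 2 fell and 1 rose, and DESeq2 also called 2 lower and 0 higher). At 90 min 1 rose and 2 fell, as at 180 min. Calls made up 28.6%, 42.9% and 42.9%, against 10.8%, 21.1% and 31.1% of all genes tested, and the list medians were 0.06, -0.03 and -0.10 against 0.00, 0.00 and 0.01 for all genes. Mxi1, a MAX-binding repressor of the same family as Mxd1, went the opposite way to Mxd1 late on: it rose by 0.37 (SE 0.079, adjusted p = 0.000275) at 90 min and by 0.81 (SE 0.077, adjusted p = 2.65e-13) at 180 min, from 27.4 to 48.1 CPM. Mlxip, a glucose-sensing partner of MLX, fell by 0.41 (SE 0.053, adjusted p = 3.88e-09) at 180 min. Mga, another MAX partner, fell by 0.45 (SE 0.053, adjusted p = 4.72e-09) at 45 min. An alternative added once the data had been seen took out, library by library, any trend of level on transcript length and GC content, and there Mga was at -0.15 (adjusted p = 0.0174). The count of 2 at 45 min was 1 in that setting and without library 2 or 3 of macrophages alone or library 1, 3 or 4 of 45 min. Max itself was at -0.16 at 180 min (adjusted p = 0.0328), a call lost in 9 of 23 alternatives.

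Of 23 genes for cofactors and turnover of MYC protein, 4 rose and 5 fell at 45 min, 3 rose and 6 fell at 90 min, and 5 rose and 6 fell at 180 min. Calls took shares of 39.1%, 39.1% and 47.8%, against 10.8%, 21.1% and 31.1% of all genes tested, and the medians were -0.04, -0.08 and 0.02. Skp2, part of a ubiquitin ligase that acts on both MYC and p27, rose by 0.73 (SE 0.12, adjusted p = 3.55e-06) at 90 min and by 1.05 (SE 0.12, adjusted p = 8.77e-11) at 180 min, from 8.65 to 17.9 CPM. Usp36, a nucleolar deubiquitinase, rose by 0.50 (SE 0.064, adjusted p = 3.70e-09) at 180 min. Pim1, a kinase that stabilizes MYC, rose by 0.23 (SE 0.044, adjusted p = 0.000114) at 45 min. Large coactivator genes fell: Trrap by 0.40 and Ep400 by 0.32 at 45 min (adjusted p = 1.80e-07 and 3.29e-06). The ubiquitin ligase gene Huwe1 fell by 0.47 at 45 min (adjusted p = 3.11e-10). At 45 min these shrank with the length and GC trend removed, Trrap to -0.24, Ep400 to -0.19, Huwe1 to -0.22 and Pim1 to 0.14, and all 4 were still called. The count at 45 min was 5 in place of 9 without library 1 of 45 min.

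Of 31 textbook MYC targets outside the cell cycle 3 rose and 0 fell at 45 min, by edgeR and by DESeq2 alike (4 and 0 at an unadjusted p under 0.05). At 90 min 4 rose and 3 fell, and at 180 min 9 rose and 0 fell (10 and 1 at an unadjusted p under 0.05, and 10 and 0 by DESeq2). The shares called were 9.68%, 22.6% and 29%, against 10.8%, 21.1% and 31.1% of all genes tested, and the medians were 0.02, 0.02 and 0.08. Odc1, whose enzyme sets the pace of polyamine synthesis, rose at every time, by 0.91 (SE 0.056, adjusted p = 5.36e-21) at 180 min, from 78.8 to 148 CPM. Gnl3, the nucleolar protein nucleostemin, rose by 0.44 (SE 0.069, adjusted p = 1.17e-06) at 90 min and by 0.67 (SE 0.068, adjusted p = 2.44e-12) at 180 min. Ppan, a ribosome assembly factor, rose by 0.52 (adjusted p = 2.37e-05) and Ncl, which encodes nucleolin, by 0.21 (adjusted p = 0.000276) at 180 min. Shmt2, a mitochondrial enzyme of serine breakdown, fell by 0.40 (SE 0.091, adjusted p = 0.000683) at 90 min. The count at 45 min was 1 in place of 3 without library 1 of macrophages alone or library 4 of 45 min, and that at 90 min was 11 in place of 7 with the length and GC trend removed.

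Cables1 was the rarest member, and its values rest on few reads. Macrophages alone gave 29, 35, 27 and 15 reads, or 1.05, 1.37, 1.02 and 0.805 CPM. At 45 min there were 22, 25, 7 and 42 reads, or 0.720, 0.851, 0.289 and 1.02 CPM. These groups overlapped, and the change was -0.53 (SE 0.33) and not called. At 90 min there were 21, 70, 23 and 41 reads, or 1.53, 4.07, 1.63 and 2.38 CPM, all above every library of macrophages alone. The rise was 1.18 (SE 0.32), with library 2 of 90 min far above the other 3. Without that library it was 0.80 and not called, and with all libraries thinned to the smallest total it was 1.05 and not called. At 180 min there were 69, 76, 166 and 174 reads, or 4.70, 6.98, 7.05 and 7.33 CPM, and every library was above every other in the series. The rise against macrophages alone was 2.61 (SE 0.31), a ratio of 6.09, and that from 90 to 180 min was 1.42 (SE 0.29). Over the 23 alternatives the change at 180 min ran from 2.42 to 2.76. By size of fold change Cables1 was number 28 of 14168 genes among rises at 180 min, number 441 at 90 min and number 1134 among falls at 45 min. Since Cables1 was chosen with its levels known and rests on few reads, nothing is read from these ranks.

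Reads near Cables1 were checked because another gene lies on the opposite strand. Gm6277, antisense to Cables1 with 1314 bases of shared exon, held 69 reads in all libraries and 0.0279, 0.182, 0.411 and 0.314 CPM in macrophages alone and at the 3 times. A gene model inside Cables1 on the same strand, AC100751.1, held 61 reads in all and 0.00979, 0.0491, 0.265 and 0.463 CPM. Both means were higher at 90 and 180 min than in macrophages alone. The sources used here do not give the strand setting of the counting, and whether reads of these models were counted for Cables1 was not tested.

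Of 10 tested genes for proteins that bind CABLES1 or CDK5, 0 were called by edgeR or DESeq2 at 45 min (1 at an unadjusted p under 0.05), 2 rose and 1 fell at 90 min, and 2 rose and 3 fell at 180 min. Called shares were 0%, 30% and 50%, against 10.8%, 21.1% and 31.1% of all genes tested, and the medians were 0.02, -0.03 and -0.13. Wee1, the kinase that places an inhibitory phosphate on cyclin-dependent kinases, rose by 0.43 (SE 0.099, adjusted p = 0.000839) at 90 min and by 1.27 (SE 0.096, adjusted p = 4.38e-17) at 180 min, where it reached 38.4 CPM. Abl1, a tyrosine kinase, fell by 0.19 (SE 0.051, adjusted p = 0.00457) at 90 min and by 0.28 (SE 0.051, adjusted p = 9.99e-06) at 180 min, and Tdrd7 fell by 0.27 (adjusted p = 2.69e-06) at 180 min. Cables2, the paralog of Cables1, was at -0.22 at 90 min (adjusted p = 0.0741). The call of Cdk5 at 90 min (0.24, adjusted p = 0.0473) was lost in 17 of 23 alternatives. The count of 0 at 45 min was 1 in 4 alternatives, and that at 180 min was 3 in place of 5 without library 2 of 180 min or with the length and GC trend removed.

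The 3 D-type cyclins, which activate the same kinases, took different courses. Ccnd1 gave 115, 117, 122 and 117 CPM in macrophages alone, 148, 131, 126 and 144 CPM at 45 min, 130, 142, 140 and 134 CPM at 90 min, and 141, 138, 129 and 137 CPM at 180 min. Every library with apoptotic cells was above every library of macrophages alone, and the 3 times overlapped each other. The rises were 0.22 (SE 0.050), 0.21 (SE 0.051) and 0.20 (SE 0.051) at 45, 90 and 180 min. Between times the differences lay between -0.02 and 0.00 and none was called.

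Ccnd2 gave 177, 173, 170 and 167 CPM in macrophages alone, 177, 165, 165 and 163 CPM at 45 min, and 142, 167, 165 and 155 CPM at 90 min. At 180 min it gave 118, 111, 112 and 119 CPM, below every other library of the series. The fall at 180 min was 0.58 (SE 0.050) against macrophages alone and 0.45 (SE 0.051) against 90 min. At 45 and 90 min the changes were -0.04 (SE 0.048) and -0.12 (SE 0.049) and were not called, although that at 90 min was called in 6 of 23 alternatives.

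Ccnd3 gave 46.9, 42.4, 45.0 and 46.9 CPM in macrophages alone and 54.5, 53.2, 47.3 and 53.2 CPM at 45 min. It gave 39.9, 41.0, 40.2 and 37.6 CPM at 90 min, and 43.0, 37.5, 38.4 and 38.8 CPM at 180 min. It was thus highest at 45 min, where all libraries were above those of macrophages alone, and low at 90 min, where all were below them. The difference of 90 min from 45 min was -0.39 (SE 0.069), and it was called in all 23 alternatives. The smaller changes against macrophages alone, 0.20 (SE 0.066), -0.19 (SE 0.070) and -0.20 (SE 0.069), lost their calls in 6, 9 and 7 of the alternatives. With libraries thinned to the smallest total those of 90 and 180 min were -0.11 and -0.09, and with the length and GC trend removed that of 45 min was 0.13.

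Per kb, Ccnd1 made up 51.7 ± 0.998% of the summed D-type cyclin level in macrophages alone, 55.1 ± 1.33% at 45 min, 57.7 ± 0.510% at 90 min and 63.4 ± 0.763% at 180 min (SD, n = 4 each). No 2 groups overlapped in this share. The share of Ccnd2 was 37.6 ± 0.922%, 33.7 ± 1.33%, 33.3 ± 0.880% and 26.8 ± 0.611%, with overlap only of 45 and 90 min. Ccnd3 took 10.7 ± 0.504%, 11.2 ± 0.404%, 9.02 ± 0.414% and 9.85 ± 0.417%. The sum itself moved less, from 48.4 ± 0.561 CPM per kb in macrophages alone to 52.8 ± 2.97 at 45 min, 50.2 ± 2.45 at 90 min and 45.6 ± 1.52 at 180 min.

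**Figure D3:**
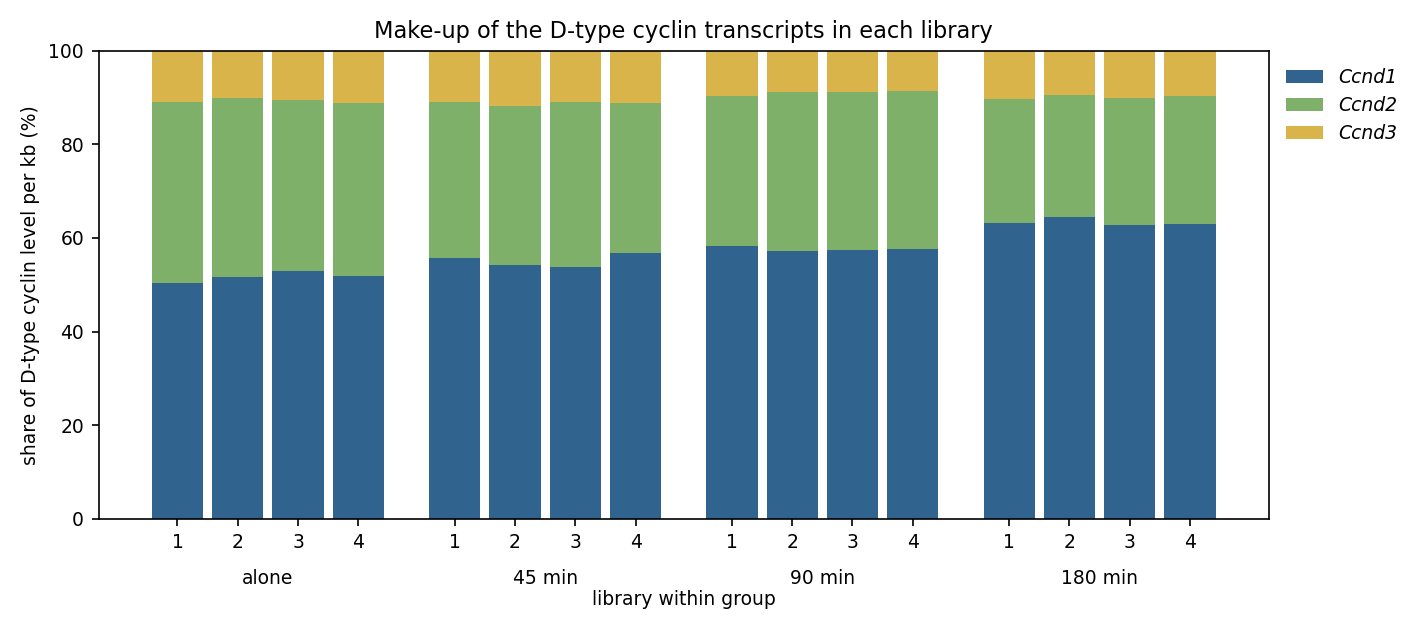
Share of the summed level per kb (y axis, %) of Ccnd1, Ccnd2 and Ccnd3 in each of the 16 libraries (x axis, library within its group). Ccnd1 goes from 51.7% on average in macrophages alone to 63.4% at 180 min and Ccnd2 from 37.6% to 26.8%.

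Of the partner kinases, Cdk4 was called at no time and Cdk6 was called lower at 45 and 180 min. Cdk4, whose upstream window holds the 4 E-boxes printed above, gave 46.3, 46.8, 46.7 and 46.9 CPM in macrophages alone, 49.2, 49.4, 50.3 and 50.3 CPM at 45 min, 53.3, 47.2, 49.7 and 46.7 CPM at 90 min, and 50.8, 44.7, 48.9 and 57.3 CPM at 180 min. All libraries of 45 min were above those of macrophages alone, and the later groups overlapped them. Its changes were 0.09 (SE 0.066), 0.07 (SE 0.068) and 0.12 (SE 0.067), none called here or in any of the 23 alternatives. Whether MYC acts on Cdk4 in these cells was not tested.

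Cdk6, with 1 E-box in its window, gave 263, 275, 275 and 263 CPM in macrophages alone, 227, 250, 225 and 223 CPM at 45 min, 241, 253, 250 and 257 CPM at 90 min, and 195, 231, 243 and 234 CPM at 180 min. Every library with apoptotic cells was below every library of macrophages alone. The falls were 0.22 (SE 0.049) at 45 min and 0.25 (SE 0.049) at 180 min, and the change at 90 min was -0.10 (SE 0.049), not called. Cdk6 has 13989 bases of exon, the most of the 10 genes. With the length and GC trend removed its change at 45 min was -0.0023 and not called, and that at 180 min was -0.13 and still called. The call for 180 against 90 min (-0.15, SE 0.050) was lost in 19 of 23 alternatives, and it was -0.08 without library 1 of 180 min. Cdk4 per Cdk6, each per kb, was 0.748 ± 0.0182 in macrophages alone and 0.930 ± 0.0558, 0.849 ± 0.0770 and 0.968 ± 0.140 at the 3 times (SD, n = 4 each), all libraries above those of macrophages alone.

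Of the inhibitors, Cdkn1a fell at 90 and 180 min and Cdkn1b was called at no time. Cdkn1a gave 307, 293, 299 and 293 CPM in macrophages alone, 341, 313, 328 and 321 CPM at 45 min, 235, 273, 249 and 247 CPM at 90 min, and 280, 263, 274 and 259 CPM at 180 min. All libraries of 45 min were above those of macrophages alone, and all of 90 and 180 min were below them. The changes were 0.13 (SE 0.045, not called, but called in 15 of 23 alternatives), -0.25 (SE 0.045) and -0.15 (SE 0.045). The change at 45 min was 0.03 with the length and GC trend removed. That at 180 min lost its call without library 4 of 180 min (-0.12). From 45 to 90 min Cdkn1a fell by 0.38 (SE 0.045). Its difference of 180 from 90 min was 0.10 (SE 0.046), not called, and the libraries of these 2 times overlapped. Cdkn1b gave 33.9, 36.3, 37.3 and 37.6 CPM in macrophages alone, 34.4, 36.7, 31.6 and 34.8 CPM at 45 min, 38.3, 28.9, 33.7 and 32.3 CPM at 90 min, and 33.7, 37.2, 34.9 and 36.9 CPM at 180 min. All 4 groups overlapped, with changes of -0.08 (SE 0.075), -0.13 (SE 0.079) and -0.02 (SE 0.078).

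The p53 targets, among which Cdkn1a is counted in textbooks, moved in both directions. The list of 22 tested genes leaves out Cdkn1a and includes Trp53, the gene of p53 itself, which was not called at 45, 90 or 180 min. Of these 22, 4 rose and 3 fell at 45 min, 5 rose and 7 fell at 90 min, and 4 rose and 7 fell at 180 min. The shares called were 31.8%, 54.5% and 50%, against 10.8%, 21.1% and 31.1% of all genes tested, with medians of 0.09, -0.14 and -0.09. Btg2, which encodes an antiproliferative protein, rose by 0.64 (SE 0.079, adjusted p = 1.47e-08) at 45 min and then fell below macrophages alone by 1.52 (SE 0.092, adjusted p = 2.04e-20) at 90 min and by 1.28 (adjusted p = 1.27e-18) at 180 min. Plk3, a stress-response kinase, rose throughout, by 0.87, 1.02 and 1.44 (adjusted p = 6.33e-10, 2.68e-12 and 6.13e-19). Mdm2, the ubiquitin ligase of p53, rose by 0.50 (SE 0.041, adjusted p = 4.61e-15) at 90 min. Sesn2, a stress-induced inhibitor of mTORC1 signalling, fell by 1.11 (SE 0.080, adjusted p = 7.72e-18) and Trp53inp1 by 0.75 (SE 0.070, adjusted p = 1.16e-13) at 180 min. The count at 45 min was 4 in place of 7 without library 4 of macrophages alone or library 3 of 45 min.

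FOXO factors activate Cdkn1b in resting cells. Of 17 FOXO genes and targets 1 rose and 2 fell at 45 min, 1 rose and 6 fell at 90 min, and 6 rose and 8 fell at 180 min. The shares called were 17.6%, 41.2% and 82.4%, against 10.8%, 21.1% and 31.1% of all genes tested, with medians of -0.02, -0.17 and -0.23. This list too was chosen with earlier results of these data known, so nothing is read from its shares. Bcl6, a transcriptional repressor, fell by 0.70 (SE 0.053, adjusted p = 2.32e-16) at 90 min and by 1.18 (SE 0.054, adjusted p = 1.96e-26) at 180 min, from 158 to 69.6 CPM. Insr, the insulin receptor gene, fell by 0.60 (adjusted p = 4.25e-13) and Cited2 by 0.58 (adjusted p = 2.12e-12) at 180 min. Klf2 fell by 0.89 (SE 0.14, adjusted p = 6.61e-07) at 90 min and rose by 0.37 (SE 0.12, adjusted p = 0.0175) at 180 min, both against macrophages alone. Irs2, an adaptor of the insulin receptor, rose by 0.42 (SE 0.069, adjusted p = 2.63e-06) at 90 min.

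Downstream of the cyclin D kinases, of 29 other G1/S regulators 0 rose and 1 fell at 45 min by edgeR and by DESeq2 (4 and 2 at an unadjusted p under 0.05). At 90 min 3 rose and 1 fell, and at 180 min 9 rose and 4 fell. The shares called were 3.45%, 13.8% and 44.8%, against 10.8%, 21.1% and 31.1% of all genes tested, with medians of 0.01, 0.02 and 0.10. Rbl1, which encodes p107 of the retinoblastoma family, fell by 0.31 (SE 0.077, adjusted p = 0.0017) at 90 min and by 0.87 (SE 0.079, adjusted p = 6.09e-14) at 180 min, from 43.3 to 23.8 CPM, and its relative Rbl2 fell by 0.28 (adjusted p = 0.000192). Cdc25a, a phosphatase that activates CDK2, rose by 0.45 (SE 0.10, adjusted p = 0.000529) at 180 min. Rb1 was at -0.27 (adjusted p = 0.00415) at 45 min, a call that did not hold when library 2 of macrophages alone was left out (-0.22) and with the length and GC trend removed (-0.17). With libraries thinned to the smallest total 6 in place of 13 were called at 180 min. The count of 4 at 90 min was 2 in that setting, with no filter, or without library 1 or 3 of macrophages alone or library 4 of 90 min. The count of 1 at 45 min was 0 or 2 in 4 alternatives.

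Of 29 genes of S phase and mitosis 2 rose and 0 fell at 45 min by edgeR and by DESeq2 (4 and 2 at an unadjusted p under 0.05), 1 rose and 2 fell at 90 min, and 2 rose and 2 fell at 180 min. The shares called were 6.9%, 10.3% and 13.8%, against the same shares of all genes, with medians of 0.08, -0.01 and 0.10. Cdt1, which loads the replicative helicase and is cleared from cells that enter S phase, rose by 0.51 (SE 0.058, adjusted p = 3.16e-10) at 90 min and by 0.67 (SE 0.057, adjusted p = 6.98e-15) at 180 min, from 66.0 to 105 CPM. Mcm6, a subunit of that helicase, fell by 0.30 (SE 0.061, adjusted p = 8.30e-05) at 180 min. Mki67, the proliferation antigen Ki-67, was at -0.34 at 45 min (adjusted p = 0.0544). The count at 90 min was 1 in place of 3 without library 3 of macrophages alone or library 2 of 90 min. The count at 45 min was 1 without library 1 or 4 of macrophages alone or library 4 of 45 min, thinned, or with the length and GC trend removed, and 5 with only the 2 groups compared.

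**Figure D4:**
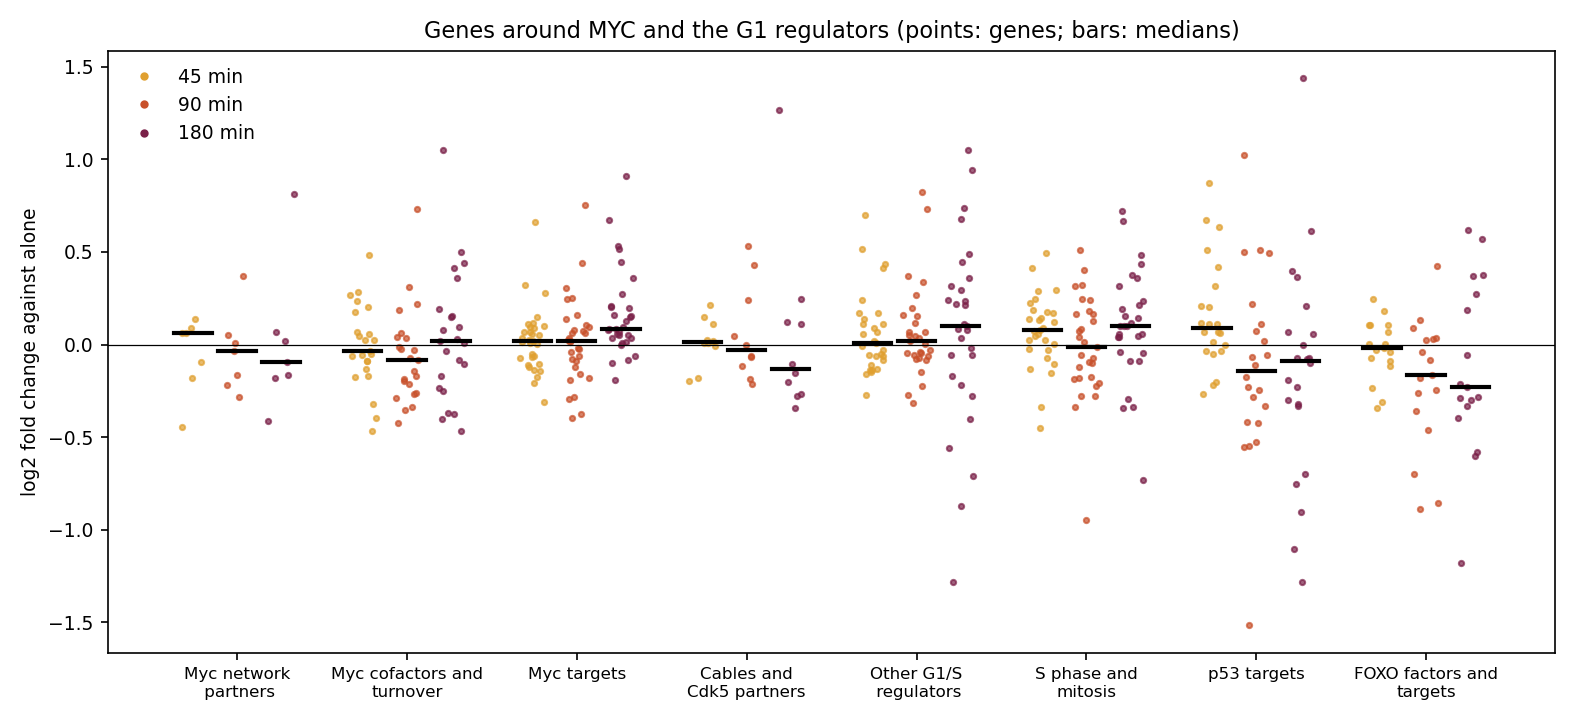
Log2 fold change against macrophages alone (y axis) of the tested genes of 8 lists (x axis) at 45, 90 and 180 min; points are genes and black bars list medians. Medians stay between -0.23 and 0.10, with single genes such as Wee1 (1.27), Plk3 (1.44) and Btg2 (-1.52) far from them.

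Between times, 4 members were called from 45 to 90 min (2 higher, 2 lower; 28.1% of all genes tested, 14.8% higher and 13.3% lower), 5 from 90 to 180 min (1 higher, 4 lower; 11.4%, 4.45% higher and 6.97% lower) and 6 from 45 to 180 min (2 higher, 4 lower; 36.4%, 18.3% higher and 18% lower). The libraries did not overlap for 4, 3 and 5 members, against 25.1%, 12.3% and 32.3% of all genes. Cables1 was the only member called higher from 90 to 180 min. Myc, Mxd1, Ccnd2 and Cdk6 were lower, and the call of Cdk6 was lost in 19 of 23 alternatives. These comparisons share libraries with those against macrophages alone.

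Genes with a like course were found by Pearson correlation of log2 CPM over the 16 libraries among 9994 named genes with a mean of at least 1 on the log2 scale. Since the libraries form 4 groups, such values mostly follow the group means. The 5 nearest to Myc were Fosl2, an AP-1 subunit (r = 0.937), the monocyte chemokine gene Ccl7 (0.935), Ccdc71l (0.933), Hilpda, a lipid droplet protein gene (0.932), and Mybpc3 (0.928). Fosl2 went from 118 CPM in macrophages alone to 150, 192 and 154 CPM at the 3 times. Those nearest to Cables1 were Pwwp2b (0.959), the vitamin C transporter gene Slc23a2 (0.953), the mechanosensitive channel gene Piezo1 (0.952), Ppp1r12b (0.948) and Lhfpl2 (0.946). Piezo1 was at 347, 334, 432 and 573 CPM in the 4 groups.

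Library totals ran from 10.7 M to 41.7 M counts, and the later groups were shallower (group medians of 26.1 M for macrophages alone, then 30.3 M, 15.8 M and 18.8 M). All 10 macrophage markers had counts. Their sum per library was 10763 to 11017 CPM in macrophages alone, 11674 to 12658 CPM at 45 min, 10522 to 10989 CPM at 90 min and 9919 to 11286 CPM at 180 min. The libraries of 45 min thus lay above those of every other group. Of 10 progenitor markers Hoxb8 itself carried nearly the whole sum (28.0 CPM in macrophages alone and 21.8 CPM at 180 min), and Flt3, Elane, Prtn3 and Ctsg were at 0. The summed T cell markers, 12 mouse genes, were at 12.1 to 14.7 CPM in macrophages alone and at 9.70 to 14.3 CPM with apoptotic cells. That sum was mostly Cd28 (12.3, 9.73, 9.55 and 11.4 CPM in macrophages alone and at the 3 times), and Cd3e, Cd3g, Cd2 and Bcl11b were at 0 in every library. Other T cell genes had higher means with apoptotic cells at low levels: Lck was at 0.122, 0.182, 0.351 and 0.223 CPM in macrophages alone and at the 3 times, Lat at 0.284, 0.379, 0.559 and 0.557 CPM, and Cd3d at 0, 0.0158, 0 and 0.125 CPM. What was done with human reads is not given, so these mouse genes cannot show how much Jurkat RNA was present. Jurkat cells express MYC of their own, and the part of human reads in the counts of the members was not tested. Neutrophil markers summed to at most 4.40 CPM, B cell markers to at most 2.85 CPM and erythroid and mast cell markers to at most 0.288 CPM. In bulk RNA, fewer cells of a kind and less RNA per cell cannot be told apart.

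Some members share exon bases with a gene on the other strand, and the counting's use of strand is not given. Ccnd1 shares 1100 bases with LTO1, which was at 36.8, 36.2, 36.6 and 30.9 CPM in macrophages alone and at the 3 times. Cdk4 shares 641 bases with Tspan31, which at 82.5, 90.4, 74.4 and 68.1 CPM was above Cdk4 itself in counts, and Ccnd3 shares 361 bases with Bysl (21.2, 21.1, 19.2 and 20.4 CPM). The antisense models at Ccnd2 and Cdkn1a were at most at 0.900 and 0.217 CPM. The part of shared reads in the members' levels was not tested.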

How the data were processed

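Total RNA of 16 libraries was depleted of ribosomal RNA and made into directional libraries, per the labels' protocols. Values are raw counts by Ensembl gene, deposited by the authors in 1 table without normalization. STAR 2.7.9a, SAMtools, HTSeq and build mm39 are named in the submitters' processing notes, without roles; the sources used here do not state annotation, strand setting or what was done with human reads. Column names give each library's group and no replicate number, so libraries 1 to 4 of a group are names in file order. Pairs of libraries within a group differed by more than sampling noise (chi-square per degree of freedom of 3.98 to 10.2). Each was entered in the fit as 1 replicate, and this spread cannot show whether they came from separate cultures.

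Symbols, classes, exon lengths, strands and shared exon bases came from GENCODE M21, which is for an earlier build (GRCm38), and none of its coordinates are printed; 52135 IDs had a symbol. Genes passed edgeR's filter (minimum count 10, minimum total 15), library sizes were adjusted by TMM, and edgeR 4.0.16 (R 4.3.3) fitted all libraries with group as the only term; calls are at a Benjamini-Hochberg adjusted p under 0.05. SE was obtained as |log2 fold change| over the root of the F statistic. The method was tested on data simulated with the spread that edgeR itself had fitted. These held no trend on length or GC content, so they cannot show how the method handles one. DESeq2 1.42.0 was an alternative. The members and the 14 lists (228 entries, 226 matched, with shared genes) were chosen with earlier results of these data known. Named genes are the members, for each list up to 4 genes of smallest p at each time against macrophages alone, and the 5 nearest in pattern to Myc and Cables1; some of these are counted and not reported by name here.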

Additional observations from a re-analysis of the deposited data

Results flagged for a closer look

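In groups of 4 libraries, 5 of 40 sets of values had a library standing apart by Dixon's criterion, which chance gives in about 1 in 20 groups. These were Mxd1 in library 4 of 45 min (184 CPM) and library 2 of 180 min (116 CPM), Cables1 in library 1 of 180 min (4.70 CPM), Ccnd2 in library 1 of 45 min (177 CPM) and Cdk6 in library 2 of 45 min (250 CPM).

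For these members the change against macrophages alone differed between times by edgeR's test of the difference, given without p-values because the members were chosen with the data known. From 45 to 90 min the differences were 0.67 for Myc, 1.71 for Cables1, -0.39 for Ccnd3 and -0.38 for Cdkn1a. From 90 to 180 min they were -0.43 for Myc, -0.57 for Mxd1, 1.42 for Cables1, -0.45 for Ccnd2 and -0.15 for Cdk6. From 45 to 180 min they were 0.24 for Myc, -0.56 for Mxd1, 3.13 for Cables1, -0.54 for Ccnd2, -0.40 for Ccnd3 and -0.28 for Cdkn1a. Of 23 alternatives, 19 lost the call of Cdk6 from 90 to 180 min and 14 that of Myc from 45 to 180 min.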

How the results depend on the processing

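Over 23 alternatives no member's called change reversed: edgeR with RLE factors, DESeq2, no filter, 2 groups per fit, thinned libraries, coding genes only, each of 16 libraries left out, and a length and GC trend removed, the last chosen after the data were seen. Of 1380 recomputed member changes 1293 kept their side of the threshold, 59 lost a call and 28 gained one. With the trend removed 3 members in place of 5 and 905 genes in place of 1529 were called at 45 min, where 523 genes were higher and 382 lower in place of 664 and 865. From 45 to 90 min 1674 were higher and 2296 lower in place of 2096 and 1888. The cause was not tested. The other counts of members and of all genes called stayed within 1.5 times. Cables1 rests on 7 to 174 reads per library, and with thinned libraries Cables1 at 90 min and Ccnd3 at all 3 times lost their calls against macrophages alone. No paired analysis was possible because the count table's columns carry no replicate numbers.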
